A study of Homo sapiens with 4 samples.

Results

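The trefoil factor genes TFF1, TFF2 and TFF3 were followed by RNA sequencing in LCC9 cells that had been exposed to the compound A7 or to vehicle. The 3 genes were picked by their symbols and are the whole trefoil family among the 23605 gene symbols of the tables. They were picked with their A7 and vehicle values, and their shares of each library's total, already known. Those values are therefore given as a description, with no test. LCC9 is a breast cancer line derived from MCF-7 cells, which the labels give as positive for estrogen receptor alpha and as tamoxifen-resistant. A7, which the submitters describe as a mimetic of the tumour suppressor BRCA1, was given for 24 h to 2 samples, and DMSO as vehicle for 24 h to the other 2. All 4 samples were the same cell line, kept in phenol red-free medium whose 5% serum had been stripped with charcoal, so A7 and vehicle cells alike lived in medium with little estrogen. The labels give no dose of A7, and they leave unsaid whether replicates were separate cultures. The spread between replicates, and any p-value built on it, may therefore be technical.

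Trefoil factors are small secreted peptides built from the trefoil domain, a compact loop structure held together by disulfide bonds. Mucus-secreting epithelia of the stomach and intestine release them together with mucins, and they are known for protecting the surface and helping it to close after injury. TFF1, first described as pS2, was found as an estrogen-induced transcript of MCF-7 cells and is a standard readout of estrogen receptor activity in breast cancer. TFF3, the intestinal trefoil factor, is also known as estrogen-responsive in breast cancer cells. TFF2, the spasmolytic polypeptide, carries a pair of trefoil domains and is known mainly from mucous cells of the stomach.

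Levels are in scaled FPKM, which are the deposited FPKM, fragments per kilobase of transcript relative to the library's mapped fragments, divided by a factor per library that lay between 0.9899 and 1.02. Summed FPKM were 1189056 and 1192830 in the A7 libraries and 1324082 and 1473540 in the vehicle libraries. Depth, read from the steps between low values, was roughly 4100000 and 3100000 fragments with A7 and 2200000 fragments in each vehicle library. All 8 markers of luminal epithelium were expressed, and KRT5, KRT14 and KRT17 of basal epithelium were listed at 0 in all 4 libraries. The other basal markers, TP63, MYLK and OXTR, had means of 0.943, 0.904 and 0.0321 FPKM. Of 6 immune markers 5, PTPRC of leukocytes among them, were listed at 0 in all 4 libraries. The exception, CD68, was at 3.47 and 4.15 scaled FPKM with A7, against 4.11 and 4.15 with vehicle. The 6 fibroblast markers summed to 11.0 and 0.963 scaled FPKM with A7 and to 0.416 and 0.421 with vehicle. The high value is DCN, the matrix proteoglycan decorin, at 8.4 in A7 replicate 1, while the receptor gene PDGFRB was listed at 0 throughout. DCN, the collagen gene COL1A1 and LUM were higher in both A7 libraries than in either vehicle library, with A7 replicate 2 at 0.23, 0.613 and 0.12. The part of these markers in the results below was not tested.

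The most abundant member was TFF1, which stood at 35311 and 35079 scaled FPKM in the A7 libraries, against 75730 and 79930 in the vehicle libraries. Both A7 libraries lay far below both vehicle libraries, and the replicates of each group lay close together. The means were 35195 ± 164 with A7 and 77830 ± 2970 with vehicle (SD, n = 2 each), 2.21-fold lower with A7. Each of the 4 possible pairs of an A7 and a vehicle library gave a ratio between 0.439 and 0.466. On the log2(scaled FPKM + 1) scale the difference was -1.14, whereas the A7 replicates differed by 0.010 and the vehicle replicates by 0.078. The difference was -1.15 without A7 replicate 1 and -1.14 without A7 replicate 2. Among all tested genes, 18.6% likewise had both A7 values below both vehicle values. RNA from bulk cultures cannot tell fewer TFF1-expressing cells from less TFF1 RNA per cell.

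A second member, TFF3, was lower with A7 as well, at a level over 1000 times below that of TFF1. Its values were 30.8 and 18.8 scaled FPKM in the A7 libraries, against 52.5 and 37.2 in the vehicle libraries. The groups did not overlap, but the higher A7 value and the lower vehicle value stood close to each other. Both A7 values lay below both vehicle values in 25.2% of the 1459 tested genes within 2-fold of TFF3's mean FPKM. Over all tested genes that share was 18.6%. The means were 24.8 ± 8.47 with A7 and 44.8 ± 10.8 with vehicle (SD, n = 2 each), 1.81-fold lower with A7. Ratios over the 4 library pairs ran between 0.359 and 0.828, a far wider range than for TFF1. The log2 difference was -0.85, against differences of 0.682 between the A7 replicates and 0.486 between the vehicle replicates. It was -1.19 without A7 replicate 1 and -0.51 without A7 replicate 2, so 1 library moved it by more than 1.5 times.

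TFF2 was at the limit of detection. It was listed at 0.510 and 0.644 scaled FPKM in the A7 libraries, against 0 and 0.951 in the vehicle libraries. The vehicle values enclosed both A7 values, so the groups overlapped. In the deposited FPKM, the A7 libraries stood at 0.523 and 0.681 of vehicle replicate 2, and the worth of 1 fragment in those libraries at 0.526 and 0.694 of that in vehicle replicate 2. The 3 values above 0 thus correspond to the same number of fragments in each library. Over the full transcript of 737 bases that number came to 1.54 and 1.52 with A7 and 1.55 in vehicle replicate 2, which is 1 or 2 fragments. No difference in TFF2 could be seen at this depth, and its mean of 0.531 FPKM kept it out of the test across genes.

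**Figure D1:**
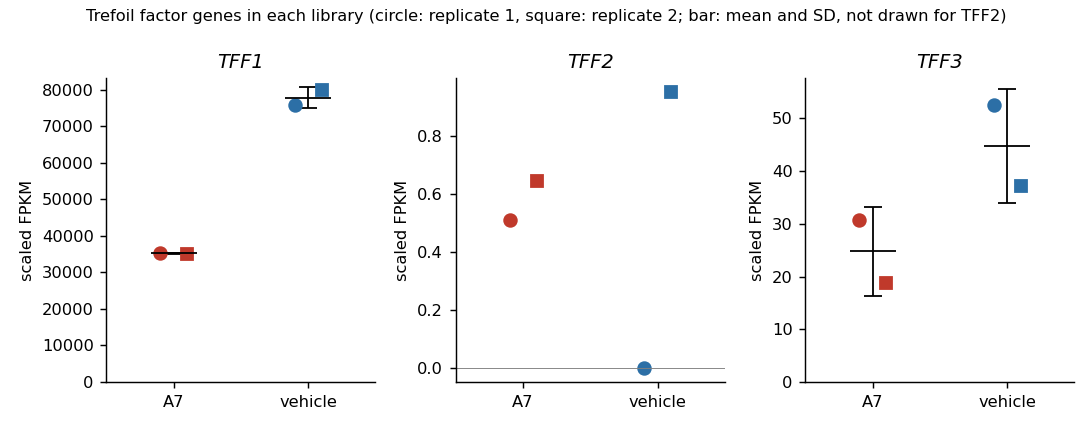
Scaled FPKM of TFF1, TFF2 and TFF3 (y axes, 1 panel per gene, each on its own linear scale) in the A7 and vehicle libraries. Circles are replicate 1, squares are replicate 2, and black bars give mean and SD for TFF1 and TFF3 only. TFF1 stands near 35200 in both A7 libraries and at 75730 or more in both vehicle libraries, TFF3 is lower in the A7 libraries with a wide spread, and TFF2 stays below 1 in every library.

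The order TFF1, TFF3, TFF2 was the same in every library. TFF1 supplied 99.91% and 99.94% of the trefoil FPKM in the A7 libraries, and 99.93% and 99.95% in the vehicle libraries. The ratio of TFF1 to TFF3 was 1147 and 1865 with A7, against 1443 and 2150 with vehicle. These ratios overlapped between the groups, so a difference in how strongly the pair moved could not be seen. In each group replicate 1 had the lower ratio.

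The fragments behind these values differ widely. With the shortest coding transcript of each gene, TFF1 rested on roughly 79600 and 61800 fragments with A7 and 93300 and 97200 with vehicle, so counting error is small beside the difference between the groups. TFF3 rested on roughly 51 and 24 fragments with A7 and 48 and 33 with vehicle. Counting alone gives 95% Poisson intervals of 38.0 to 67.1 and 15.4 to 35.7 fragments for the A7 libraries, and of 35.4 to 63.6 and 22.7 to 46.3 for the vehicle libraries. These intervals cover counting error only. All estimates use the full length of the transcript. If the deposited FPKM used lengths shortened to allow for fragment size, these short transcripts rested on fewer fragments than given. The intervals would then be wider relative to the numbers. TFF2, at 1.54, 1.52 and 1.55 where whole numbers are due, shows that the estimates are not exact. Which length was used was not tested. TFF3 has transcripts between 407 and 1109 bases in GENCODE 29, so its FPKM also depends on the transcript to which fragments were assigned. No transcript of another gene shared near-identical sequence with any of the 3 genes, and the 3 genes gave no match to one another in that search. Only TFF2 had lesser matches, to 376 other genes and at most 123 bases long. Whether the few TFF2 fragments fell there was not tested.

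TFF1 took up a large part of the summed FPKM, a share that differs from its share of fragments because FPKM is per kilobase. It made up 2.94% and 3.0% of summed FPKM in the A7 libraries, against 5.73% and 5.50% in the vehicle libraries, so the groups did not overlap. The mean shares were 2.97% ± 0.042 with A7 and 5.62% ± 0.16 with vehicle (SD, n = 2 each), a difference of -2.65 percentage points. By level, TFF1 was gene number 5 in both A7 libraries and number 3 in both vehicle libraries. The mean summed FPKM was 1190943 with A7 and 1398811 with vehicle, and TFF1 alone accounted for 20.7% of that gap of 207868 FPKM. It was the largest contribution of any single gene. Next were the small noncoding RNAs SNAR-B2 at 7.54%, SNAR-H at 6.52% and SNAR-C3 at 5.97%. The ribosomal protein gene RPL41 at 5.94% and SNAR-C4 at 3.65% followed. These are shares of a net difference, and each SNAR entry is counted singly. Without TFF1 the sums were 1154100 and 1157063 with A7, against 1248167 and 1392480 with vehicle, and still did not overlap.

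Genes as abundant as TFF1 did not show a difference of its size. Over the 4 libraries 3 genes had a higher mean FPKM, the ribosomal protein gene RPL41 and the small RNAs SNAR-B2 and SNAR-H. The next below were the interferon-induced gene IFI27, COX6C of cytochrome c oxidase, SNAR-C3 and SNAR-C4. The log2 differences of these 7 genes ran between -0.59 for SNAR-C3 and -0.07 for IFI27, with -0.12 for both RPL41 and COX6C. Among the 169 tested genes that averaged at least 1000 FPKM, TFF1 had the most negative difference. The next was SNAR-E at -1.05, followed by the chaperone gene HSPA8 at -0.73 and the nucleotide kinase gene NME1 at -0.60. Abundant genes as a class had lower means with A7, with a median of -0.187, and 153 of the 169 were lower. In 59.8% of them both A7 values lay below both vehicle values, an order that 18.6% of all 8952 tested genes showed.

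Ratios within a library, which do not depend on scaling between libraries, were lower with A7 for each of the 7 genes named as near TFF1 in abundance. That direction follows from the smaller differences of these 7 genes, and TFF1 was picked with its values known. The ratios are therefore a description only. TFF1 stood at 1.03 and 1.07 times COX6C in the A7 libraries, against 2.18 and 2.11 times in the vehicle libraries. Relative to IFI27 it stood at 0.881 and 0.875 with A7, against 1.93 and 1.77 with vehicle. Relative to RPL41 it stood at 0.246 and 0.285 with A7, against 0.549 and 0.527 with vehicle. The gap was narrower for SNAR-C4, at 2.07 and 1.70 with A7, against 3.28 and 2.70 with vehicle. It was narrowest for SNAR-C3, at 1.32 and 1.66 with A7, against 2.36 and 1.99 with vehicle. In none of the 7 ratios did the groups overlap, but all 7 share TFF1 and are not separate observations. For TFF1 itself the groups did not overlap either, an order that 18.6% of all tested genes showed. TFF1 was above IFI27 in the vehicle libraries and below it in the A7 libraries.

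**Figure D2:**
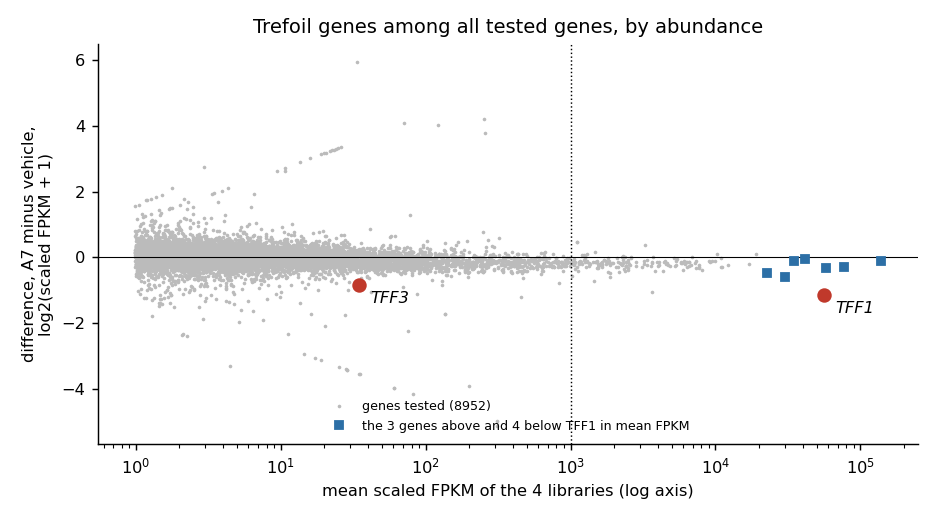
Difference between A7 and vehicle on the log2(scaled FPKM + 1) scale (y axis) against mean scaled FPKM on a log axis (x axis) for the 8952 tested genes in grey, with TFF1 and TFF3 in red and the genes nearest to TFF1 in abundance as blue squares. TFF1 lies at -1.14, below every other gene to the right of the dotted line at 1000 FPKM, and TFF3 lies at -0.85 among genes of middle level.

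TFF3 varied more between replicates than the median gene of its level. On the log2 scale its replicates differed by 0.682 with A7 and 0.486 with vehicle. The medians over 1459 tested genes within 2-fold of TFF3's mean FPKM were 0.181 and 0.186. Of these genes, 16 had a more negative difference between A7 and vehicle than TFF3, and the median of that class was -0.064. Over all 8952 tested genes TFF1 was number 61 and TFF3 number 113 by most negative difference. A log2 difference of -1 or below with no overlap of the groups, as seen for TFF1, occurred in 0.614% of tested genes. All of these positions come from the contrast by which the trefoil genes were picked.

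The libraries held few genes past the threshold. Genes averaging at least 1 FPKM, 8952 in all, were tested with limma on log2(scaled FPKM + 1), and p-values adjusted by the Benjamini-Hochberg method were called under 0.05. It called 1 gene higher and 1 lower with A7, which is 0.0112% of tested genes in each direction and 0.0223% in both. At an unadjusted limma p under 0.05 there were 198 higher genes, 2.21%, and 318 lower ones, 3.55%. With 2 samples in each group, the smallest two-sided p of an exact permutation test is 0.333.

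The 3 trefoil genes lie next to one another on chromosome 21, in the order TFF3, TFF2, TFF1, between ABCG1, which encodes a lipid transporter, and TMPRSS3, which encodes a membrane serine protease. This order is that of RefSeq's gene table for assembly GRCh38.p14, which is not the build of the tables, so no coordinates are given. That table places a long noncoding RNA, LOC105372815, across part of TFF1. It was not analysed here, and the labels name no step that keeps the strand, so reads of that pair cannot be told apart. Of the 6 genes to either side of the cluster, 7 had a value, and 2 of them reached the FPKM minimum.

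TMPRSS3, the gene next to TFF1, was at 1.37 and 1.85 scaled FPKM in the A7 libraries, against 2.96 and 2.67 in the vehicle libraries. The groups did not overlap, an order that 18.6% of all tested genes showed. The log2 difference of TMPRSS3 was -0.55 and did not pass (SE 0.21, limma adjusted p = 0.806, unadjusted p = 0.0399). ABCG1, on the other side, was at 4.91 and 4.63 with A7, against 4.59 and 3.37 with vehicle (log2 difference 0.22, SE 0.20, limma adjusted p = 0.855). UMODL1 stayed at or below 0.305 in every library. C21orf128 was listed at 0 in all 4, UBASH3A at 0 in all but vehicle replicate 1, and RSPH1 and SLC37A1 had means of 0.606 and 0.467 FPKM.

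**Figure D3:**
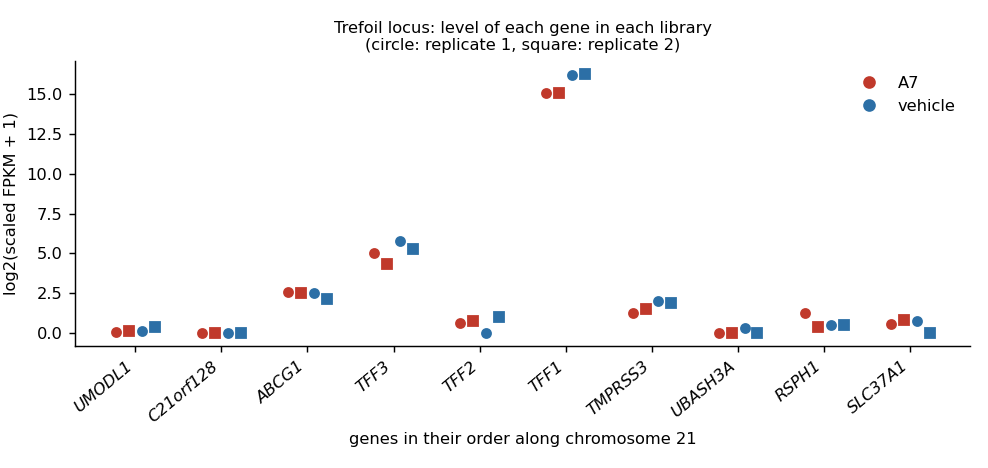
Level of each gene with a value in the trefoil region (y axis, log2(scaled FPKM + 1)), with the genes on the x axis in their order along chromosome 21, A7 libraries in red and vehicle libraries in blue. TFF1 stands above 15 in all 4 libraries and TFF3 between 4.31 and 5.74, while every other gene of the region stays below 3.

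Transcription factors known to act on trefoil genes in breast, stomach or intestine were read from a list of 20. Of these, 12 reached the FPKM minimum, 10 with a higher mean with A7 and 2 with a lower one. Their median difference was 0.23 where that of all tested genes was -0.002. The direction of the list rests on vehicle replicate 2, without which its median was -0.06. By limma 0 passed the threshold in either direction, and 0 had an unadjusted p under 0.05. FOXA1, the pioneer factor that opens estrogen receptor sites, was at 24.6 and 20.8 scaled FPKM with A7, against 18.9 and 14.6 with vehicle (log2 difference 0.42, SE 0.19, limma adjusted p = 0.806). GATA3, a luminal regulator that works with the receptor, was at 178 and 151 with A7, against 139 and 132 with vehicle. EGR1, an immediate early factor, averaged 17.0 ± 0.11 with A7 and 13.9 ± 0.84 with vehicle (SD, n = 2 each). TFAP2C, a factor of the luminal lineage, was one of the 2 with a lower mean, at 42.8 and 36.6 with A7, against 45.9 and 52.6 with vehicle. For each of these 4 genes, named for their level and small p, the groups did not overlap, and none passed. Over the 12 tested factors both A7 values lay above both vehicle values in 5, where 18.3% of all tested genes showed that order, and below them in 1, against 18.6%.

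The receptor gene ESR1, already counted among the 12 tested factors, was picked to be named after its values were seen. It was at 5.36 and 5.20 scaled FPKM with A7, against 4.28 and 4.79 with vehicle, and did not pass (log2 difference 0.18, SE 0.17, limma adjusted p = 0.861). Of factors known from the stomach and intestine, also picked after their values were seen, FOXA2 and the intestinal identity factor CDX2 were listed at 0 in all 4 libraries. GATA6 had a mean of 0.1 FPKM and GATA4 one of 0.882, both under the minimum. SPDEF, a factor of goblet cells and of luminal breast cells, was at 6.37 and 2.83 scaled FPKM with A7, against 4.57 and 2.46 with vehicle, and the groups overlapped.

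Known binding partners and reported receptors of trefoil peptides were largely silent. The list held 13 symbols, of which 11 had a value and 3 reached the minimum. GKN1 and GKN2, gastric proteins of which GKN2 pairs with TFF1, were listed at 0 throughout, as were DMBT1 and EGFR. FCGBP, which pairs with TFF3 in intestinal mucus, had a single value above 0, in A7 replicate 1, at 0.0370 scaled FPKM. These genes were chosen after their values were seen. CXCR7, an atypical chemokine receptor reported as a partner of TFF3, was at 73.2 and 78.0 scaled FPKM with A7, against 51.3 and 45.0 with vehicle. Both A7 values lay above both vehicle values, as in 18.3% of tested genes. This gave a log2 difference of 0.64 that did not pass (SE 0.14, limma adjusted p = 0.631, unadjusted p = 0.0038). CXCR4, a chemokine receptor reported to respond to TFF2, was at 1.26 and 1.65 with A7, against 1.27 and 1.81 with vehicle. F2RL1, a protease-activated receptor, was at 0.936 and 0.945 with A7, against 1.70 and 1.06 with vehicle. The median of the 3 was -0.04 and has little meaning for so few genes.

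Mucins, the large glycoproteins that trefoil peptides accompany in mucus, were low. Of 18 symbols 15 had a value, 10 of them with a mean under 0.1 FPKM, and 2 reached the minimum. MUC1, a membrane mucin of breast epithelium, was at 13.1 and 6.69 scaled FPKM with A7, against 8.06 and 8.09 with vehicle. The A7 values enclosed the vehicle values. MUCL1, a small breast mucin, was at 8.61 and 3.39 with A7, against 8.46 and 7.30 with vehicle. The gel-forming mucin genes MUC2 and MUC6, partners of TFF3 and TFF2 in the gut, had means of 0.0143 and 0.0219 FPKM. MUC20 and OVGP1 had means of 0.438 and 0.359. The median difference of the 2 tested genes, MUC1 and MUCL1, was -0.12, and 0.38 without A7 replicate 2. By limma 0 of them passed, and 0 had an unadjusted p under 0.05.

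Other genes of secretory epithelium did not share a direction. Of 22 symbols 8 reached the minimum, 5 with a higher mean with A7 and 3 with a lower one. Their median difference was 0.04, and -0.07 without A7 replicate 1. By limma 0 passed, and 0 had an unadjusted p under 0.05. AGR2, a disulfide isomerase needed to fold mucins, was at 12.4 and 11.0 scaled FPKM with A7, against 11.5 and 12.5 with vehicle. Its relative AGR3 was at 6.79 and 6.39 with A7, against 7.09 and 5.98 with vehicle. The groups overlapped for both genes, at a level well above that of most mucins. XBP1, which builds secretory capacity and is itself known as an estrogen target, was at 180 and 167 with A7, against 254 and 187 with vehicle. CREB3L4 was at 79.4 and 91.2 with A7, against 77.3 and 76.6 with vehicle, and PIP, a secreted breast protein, at 9.59 and 6.25 with A7, against 2.91 and 6.91 with vehicle. SPINK4, a protease inhibitor of intestinal goblet cells, was abundant, at 77.9 and 68.9 with A7, against 53.8 and 77.1 with vehicle. The other 6 goblet markers, CLCA1 and ATOH1 among them, had means of at most 0.128 FPKM, and 6 of the 7 gastric markers with a value were listed at 0 in all 4 libraries.

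Genes known to be induced by estrogen were listed without the trefoil genes. Of 30 symbols 24 reached the minimum, and in 21 of them the A7 mean was lower, 87.5% against 50.3% of all tested genes. In 14 of the 24, or 58.3%, both A7 values lay below both vehicle values, against 18.6% of all tested genes. The list's median difference was -0.32, smaller in size than the difference of TFF1 or TFF3, but a median does not show its single members. SGK3 was at -1.60 and EGR3 at -0.90, both named for their size, where TFF1 was at -1.14 and TFF3 at -0.85. In 3 members the A7 mean was higher. By limma 0 passed the threshold, and 9 of the 24 had an unadjusted p under 0.05, all lower, against 3.55% of all tested genes. GREB1, a cofactor of the receptor, was at 83.9 and 83.3 scaled FPKM with A7, against 142 and 132 with vehicle (log2 difference -0.71, SE 0.12, limma adjusted p = 0.439). AREG, which encodes the growth factor amphiregulin, was at 10.5 and 9.8 with A7, against 19.5 and 16.0 with vehicle (log2 difference -0.75, SE 0.17, limma adjusted p = 0.667). SLC39A6, a zinc transporter gene, was at 97.9 and 96.5 with A7, against 122 and 121 with vehicle (log2 difference -0.32, SE 0.12, limma adjusted p = 0.806). None of these passed. PDZK1, a scaffold protein gene, had a log2 difference of -0.86 (SE 0.15, limma adjusted p = 0.439), and its reads may be shared with its near-identical pseudogene PDZK1P1. The count of 21 became 15 with FPKM rescaled to a common sum per library (TPM), a scaling under which the median of all tested genes was 0.174 in place of -0.002. Such a list was drawn up with earlier results of these libraries known, and is not independent evidence of a direction.

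**Figure D4:**
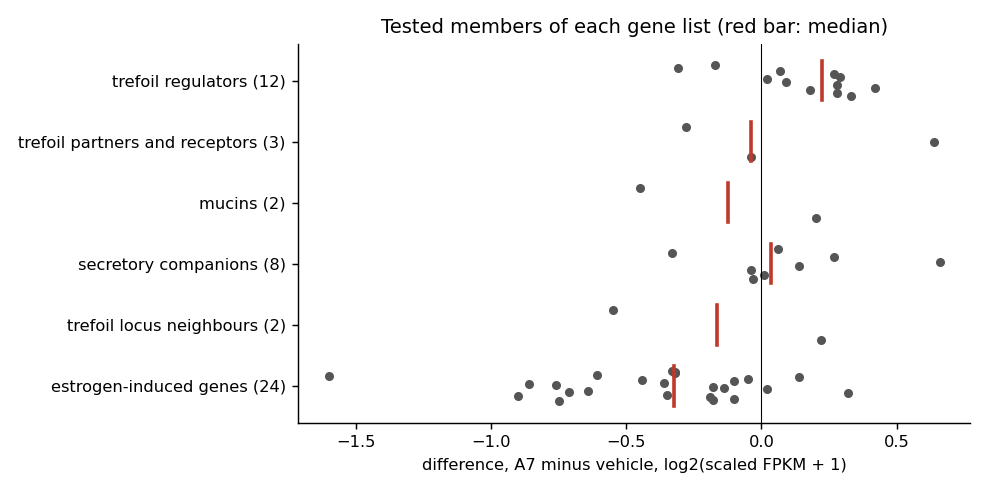
Difference between A7 and vehicle on the log2(scaled FPKM + 1) scale (x axis) for each tested member of 6 gene lists (rows, number of tested members in brackets), with red bars for the list medians. The 24 estrogen-induced genes lie mostly below 0 with a median of -0.32, and the 12 regulators of trefoil genes lie mostly above 0 with a median of 0.23 that falls below 0 without vehicle replicate 2.

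The genes with profiles most like those of the trefoil genes were found by the Euclidean distance between centred log2 profiles. It was computed over 4 libraries among 3245 other genes averaging at least 10 FPKM, with none listed at 0 in a library. Nearest to TFF1 was IL20, a cytokine of the IL10 family, at a distance of 0.122. It stood at 53.5 and 55.7 scaled FPKM with A7, against 109.8 and 129.0 with vehicle. The next were NME1-NME2 at 0.272, PDZK1P1 at 0.276, TUBA3D at 0.277, PDZK1 at 0.348 and CARD8, of the inflammasome pathway, at 0.361. IL20 was thus well ahead of the others. TFF3 was number 56, at a distance of 0.688.

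The profile of TFF3 had a wider spread between replicates than that of TFF1, and it rested on few fragments. Both replicates numbered 2 were lower than the replicate numbered 1 of the same group. That feature was shared by the genes nearest to TFF3, as follows from picking them over the same 4 libraries. These were DRAP1, a repressor of transcription, at 0.295, MRPS11 of the mitochondrial ribosome at 0.300, STRA13 at 0.384, the protease gene PRSS23 at 0.388, the prohibitin gene PHB2 at 0.426 and the keratin gene KRT18 at 0.454. KRT18 was at 240 and 172 scaled FPKM with A7, against 315 and 236 with vehicle. DRAP1 was at 10.2 and 6.84 with A7, against 17.1 and 10.3 with vehicle. Of the 12 genes named for their profiles, 4 had no near-identical sequence in another gene and 1, STRA13, was not searched. The other 7 have such a sequence, among them NME1-NME2 with NME1 and NME2, and TUBA3D with TUBA3C and TUBA3E. Fragments of these can be split between copies. A match over 4 libraries describes these libraries only.

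**Figure D5:**
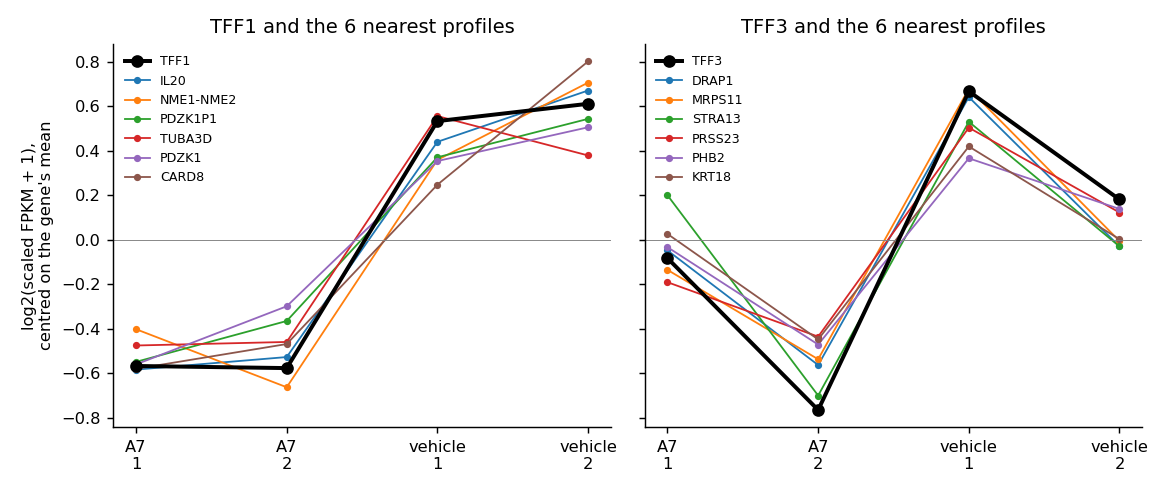
Centred profiles, log2(scaled FPKM + 1) minus the gene's mean over the 4 libraries (y axis), in the 2 A7 and 2 vehicle libraries (x axis), for TFF1 and for TFF3 in black with the 6 nearest genes in colour. TFF1 and IL20 run almost on 1 line with flat replicates, whereas TFF3 and its nearest genes are lower in the replicate numbered 2 of each group.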

How the data were processed

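Each of the 4 libraries of LCC9 cells came with 1 table of gene symbols and FPKM deposited by the authors, per the file headers. Per the labels' protocols, total RNA was turned into cDNA with a SMARTer PCR kit, sheared, ligated to adapters and amplified, with no step named that keeps the strand. The submitters' processing notes name CASAVA 1.8.2, TopHat, Cufflinks 2.2.1 and GRCh37. The sources used here do not give the annotation or the treatment of multi-mapping reads.

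Of 23619 lines, 14 with a whole number as symbol were left out (0.00539% of summed FPKM at most). Libraries were divided by their median ratio to the geometric mean over 8802 genes. Genes averaging at least 1 FPKM entered limma 3.58.1, run under R 4.3.3 (eBayes with trend, pseudocount 1, all 4 libraries, no block, 2 residual and 3.89 prior degrees of freedom), after a check on simulated data. The pseudocount makes changes of low genes look smaller. The samples sharing a replicate number deviated together with a correlation of 0.084 over 3280 genes. Fragments were estimated from FPKM times transcript length (GENCODE 29), in units of the modal value of low genes. Copies were searched with blastn 2.17.0 (95% identity or more, over 50% or more of a transcript). By rule, the 4 most abundant genes of a list and the 3 with the smallest p were named, with marker lists given mainly by sums and exceptions stated where they stand, and 1 gene near TFF1 in abundance is not reported here. Members and lists were chosen with earlier results of these data known.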

Additional observations from a re-analysis of the deposited data

How the results depend on the processing

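The TFF1 and TFF3 differences were negative under all 10 alternatives tried for each. TFF1 was -0.92 with FPKM rescaled to a common sum per library (TPM), -0.96 with that scaling after TFF1 was left out of the sum, and -0.74 after quantile normalization. Relative to the median of all tested genes the first 2 were -1.09 and -1.10. Quantile normalization gives TFF1 the value of its rank, number 5 with A7 and number 3 with vehicle. Leaving out 1 replicate gave -1.18 to -1.11 for TFF1, -1.19 to -0.51 for TFF3, and -2.76 to -2.53 percentage points for the TFF1 share. TFF2 was 1.05 and 2.57 with a pseudocount of 0.1 and 0.01. Without vehicle replicate 1 it was -0.31, and leaving out 1 replicate gave -0.31 to 0.66, since 1 value was listed at 0.

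The replicate block gave 0 higher and 0 lower genes, against 1 and 1. The labels do not say that the numbers pair samples. Higher genes numbered 4 with no filter on low values, 0 with no variance trend, and between 1 and 10 without 1 replicate. Lower genes numbered 2 under both rescalings and after quantile normalization, 0 with a pseudocount of 0.1 or 0.01, 41 with no filter, 3 with a minimum of 5 FPKM, and between 0 and 7 without 1 replicate. The causes were not tested.

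As TPM, the medians were 0.39 for the regulators, 0.08 for partners and receptors, 0.07 for mucins, 0.21 for secretory genes, 0.01 for locus neighbours and -0.10 for estrogen-induced genes, while the median of all tested genes moved to 0.174. With TFF1 left out of the sum they were 0.06 for partners, 0.04 for mucins, 0.18 for secretory genes, -0.02 for neighbours and -0.14 for estrogen-induced genes. Without 1 replicate the regulators ran between -0.06 and 0.24, partners between -0.16 and 0.11, mucins between -0.63 and 0.38 and secretory genes between -0.07 and 0.13. With a minimum of 5 FPKM the partners were at 0.64, which leaves 1 gene, CXCR7. With no filter the partners were at 0.00, mucins at 0.01, secretory genes at 0.00 and neighbours at 0.00. Of the estrogen-induced genes, 17 to 22 had a lower mean without 1 replicate, alternatives chosen after seeing the data. The other causes were not tested. By estimated fragments, TFF2 and TFF3 rested on few and TFF1 on many. Both A7 libraries were deeper than both vehicle libraries, and the part of depth in the differences was not tested.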
